A study of Mus musculus with 4 samples.

Results

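Kitl encodes Kit ligand, also called stem cell factor, and the array carried 4 probe sets that its annotation maps to Kitl and to no other gene, out of 45037 probe sets tested. Kitl was thus 1 of 18193 genes with a probe set of their own, and 0 further probe sets named it together with another gene. The arrays compared a pair of mouse stromal lines, 2 arrays per line. OP9M2, labelled a supportive mesenchymal stem cell line, is 1 clone derived from sparsely plated OP9 stroma. Human blood progenitors were the cells it supported in co-culture. BFC012 is a stromal line that the labels call a fibroblast from fetal liver, and it was the non-supportive line. Cells of both lines received 2000 rad and were seeded at 25000 cells per cm2, 48 hours before RNA was taken, so irradiation is shared by all arrays. OP9M2 was kept in 20% serum and BFC012 in 10%, and line and serum cannot be told apart. The labels call the arrays biological replicates, but each line is a single established line. An error here thus comes from the spread between cultures of a line, pooled over both lines and drawn by limma towards the typical spread over the array.

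Kit ligand binds the receptor tyrosine kinase Kit on blood stem cells, mast cells, germ cells and pigment cells. It is made as a membrane protein, and alternative splicing decides whether the form carries the main site at which proteases release it as a soluble factor. In bone marrow it is known to come from perivascular stroma and endothelium, and the stem cells that depend on it lie close to these cells. In the study itself, human stem cell factor was added to the co-cultures. The arrays measured the mouse transcript in the stroma alone and say nothing of the protein, its splice form or its release.

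Kitl lies on the plus strand of mouse chromosome 10, between 100015615 and 100100416 in the GRCm38.p6 assembly. The stretch just before the annotated transcript start at 100015821 is shown to identify the control region of the gene that the rest of the text is about; the arrays did not measure it. It covers chr10:100015571-100015820, is taken from RefSeq, and has the matches to the searched motifs in capitals. The outermost start of the gene as annotated lies within it.

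Kitl upstream: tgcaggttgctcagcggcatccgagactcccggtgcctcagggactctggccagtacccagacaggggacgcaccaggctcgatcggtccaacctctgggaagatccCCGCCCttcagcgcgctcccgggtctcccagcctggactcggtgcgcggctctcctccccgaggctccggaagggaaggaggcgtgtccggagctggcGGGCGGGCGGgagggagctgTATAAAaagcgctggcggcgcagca

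The TATA box core TATAAA begins 25 bases before the transcript start. On either strand, that core is present in 12.4% of 32851 annotated promoter windows of 250 bases. The GC box GGGCGG occurs at 45 and 41 bases before the start, where the matches overlap, and on the other strand at 143, and 32.7% of the windows hold at least 1 on either strand. Neither the E-box CACGTG (6.02% of windows) nor the motif CCAAT (33.8% of windows) is spelled in this stretch. Of its bases 69.2% are G or C, against a median of 52.4% over all windows. These are descriptions of letters, and binding was not measured.

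Kitl was higher in OP9M2 with every one of its probe sets. Values are natural logarithms of the deposited intensities, read as RMA values on the log2 scale and called levels, and differences are OP9M2 minus BFC012. Probe set 1415855_at stood at 12.96 and 12.39 on the OP9M2 arrays (replicates 1 and 2) and at 10.52 and 10.74 on the BFC012 arrays. Probe set 1448117_at gave 11.82 and 10.97 for OP9M2 against 7.76 and 8.44 for BFC012. Probe set 1426152_a_at gave 10.51 and 10.29 for OP9M2 against 7.78 and 7.93 for BFC012. In all of these the OP9M2 arrays were the high ones and the lines did not overlap, with a gap of at least 1.65 between the lowest OP9M2 and the highest BFC012 array. Probe set 1415854_at gave 8.44 and 8.57 for OP9M2 against 6.03 and 5.87 for BFC012. Here both BFC012 arrays lay below the background level of 6.09, the 95th percentile of 81 probe sets for olfactory, vomeronasal and trace amine receptor genes, while the OP9M2 arrays lay above it. Levels of different probe sets are not comparable with each other, since each has its own probes.

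**Figure D1:**
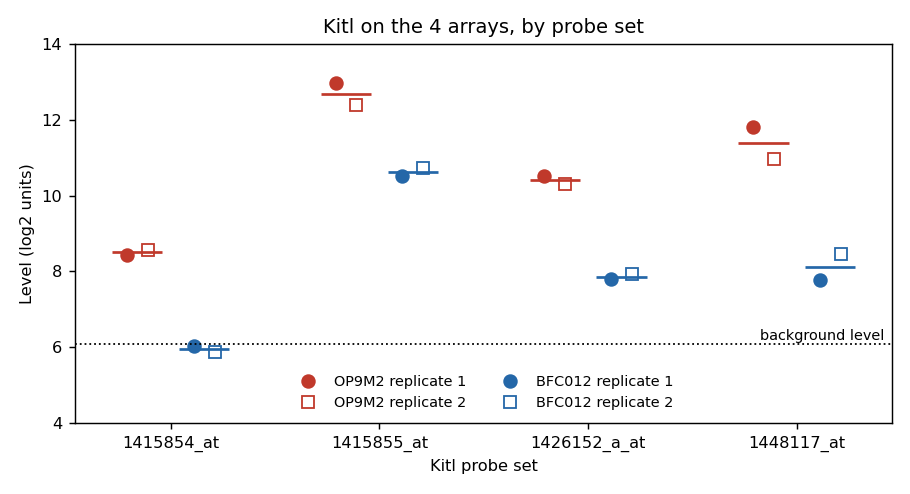
Level of Kitl (vertical axis, log2 units) for its 4 probe sets (horizontal axis) on the OP9M2 arrays (red) and BFC012 arrays (blue); filled circles are replicate 1, open squares replicate 2, short lines the mean of a line, and the dotted line the background level of 6.09. Every red symbol lies above both blue symbols of the same probe set, and only the BFC012 arrays of 1415854_at lie below background.

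The probe sets agreed in direction and differed in size. With limma over the whole array, the difference was 2.04 ± 0.24 (SE, n = 2 arrays per line) for 1415855_at, a 4.12-fold higher level in OP9M2 (adjusted p = 0.0229). It was 2.54 ± 0.16 for 1426152_a_at, or 5.82-fold (adjusted p = 0.00435), and 3.29 ± 0.39 for 1448117_at, or 9.79-fold (adjusted p = 0.0226). For 1415854_at it was 2.55 ± 0.15 (adjusted p = 0.00394), and since BFC012 was below background there, the fold is given as at least 5.32. All 4 probe sets passed an adjusted p of 0.05 and a 2-fold change, the rule for a call, against 1.80% of all probe sets called higher and 2.66% called lower. The 4 are measures of the same transcripts on the same RNA, and 3 of them were designed from a single sequence, so they are not independent evidence.

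The order from the largest difference down was 1448117_at, 1415854_at, 1426152_a_at and 1415855_at. Their 95% intervals, each not adjusted for the number of probe sets, ran from 2.26 to 4.32, from 2.17 to 2.94, from 2.13 to 2.95 and from 1.40 to 2.69. Every pair of neighbours in this order overlapped, as did the first and the last, and the differences between probe sets were not tested. The range from 2.04 to 3.29, 1.25 log2 units wide, compares with a median range of 0.48 over the 1093 genes with 4 probe sets, and 10.4% of those had a range at least as wide. In 49 of those genes at least 1 probe set was called higher in OP9M2, and their median range was 1.34. In 4 of the 1093 genes all of the probe sets were called higher. Besides Kitl these were Tgfbi, a matrix protein induced by TGF-beta, Gng2, a G protein subunit, and Asrgl1, an asparaginase-like enzyme, which were named after their values were seen.

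Within a line, the probe sets did not all order the replicates in the same way. OP9M2 replicate 1 was above replicate 2 by 0.85 for 1448117_at, by 0.57 for 1415855_at and by 0.21 for 1426152_a_at, whereas for 1415854_at the difference was -0.12. In BFC012, replicate 1 minus replicate 2 was -0.68, -0.22, -0.15 and 0.17 in the same order. Each of the 16 differences between an OP9M2 and a BFC012 array was positive, from 1.65 to 4.06. The suffix _a_at of 1426152_a_at marks a probe set whose probes match several transcripts of the same gene. It was designed from another sequence than the other 3.

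The call depended on which arrays supplied the error. Without OP9M2 replicate 1 the differences lay between 1.76 and 2.86, and without OP9M2 replicate 2 between 2.33 and 3.72, and all 4 probe sets stayed called in both cases. Without BFC012 replicate 1 they lay between 1.94 and 2.95, and without BFC012 replicate 2 between 2.15 and 3.63, but none of the 4 was called (limma adjusted p from 0.109 to 0.291). With either BFC012 array left out the error comes from the OP9M2 pair alone. The test then called 0 of 45037 probe sets, with 4568 and 4517 at an unadjusted p under 0.05. The OP9M2 arrays were 1 log2 unit or more apart at 2842 probe sets and the BFC012 arrays at 291.

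**Figure D2:**
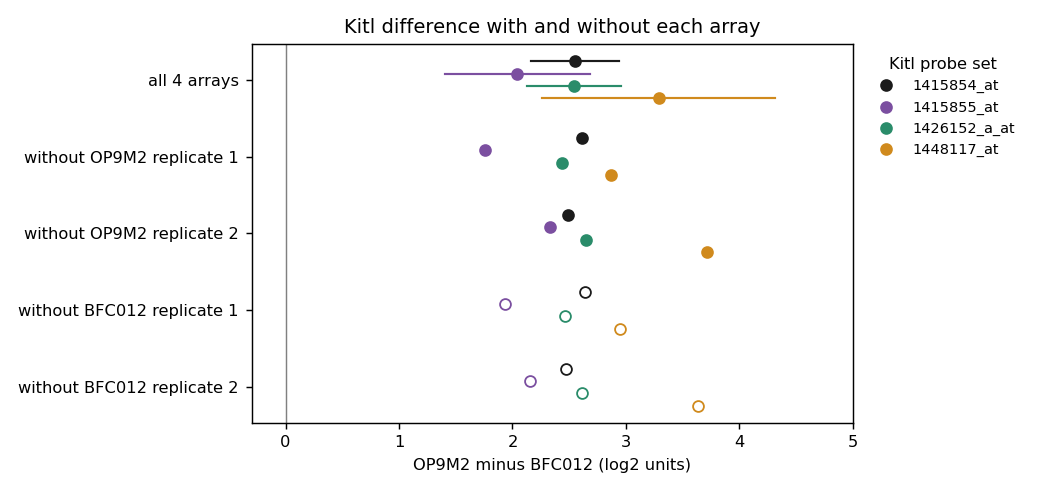
Difference of Kitl between the lines (horizontal axis, OP9M2 minus BFC012, log2 units) with all 4 arrays and with each array left out (rows), for its 4 probe sets (colours); lines are 95% intervals, drawn for all 4 arrays, filled circles have a limma adjusted p under 0.05 and open circles do not. All points lie between 1.76 and 3.72, and the open circles are those without a BFC012 array.

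OP9M2 replicate 2 stood apart in its control signals. The 24 probe sets for poly-A RNA, which is spiked in before amplification, had a median of 3.66 on that array and of 6.12 to 6.97 on the other 3. Without that array the Kitl difference was larger for 3 of 4 probe sets, and it was 2.49 against 2.55 for 1415854_at. The 3' minus 5' signal, a sign of RNA integrity, lay between -0.11 and 0.0019 for Gapdh and between 0.15 and 0.39 for beta-actin, with the line ranges overlapping in both. The arrays measure RNA of whole cultures, in which fewer producing cells and less transcript per cell cannot be told apart.

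Markers gave the following picture of what the cultures held. Of 14 measured stromal markers 11 were above background on every array, among them Vim, Fn1 and Sparc, while Lum and Thy1 were not above it on any. Of the 14, 2 were called higher in OP9M2, 1 lower and 11 neither. Among all genes, represented by 1 probe set each, 2.36% were called higher and 3.56% lower. The collagen gene Col1a2 was higher, at 14.25 and 14.14 against 6.18 and 6.07 in BFC012, near the background level, and so was S100a4, a calcium-binding protein of fibroblasts, by 2.23. Eng, a TGF-beta co-receptor, was lower with both of its probe sets, by -1.88 and -2.19, and Nt5e (-1.68) and Lum (-1.12) were not called. Of 13 markers of mast cells and melanocytes, the Kit-bearing cells of tissues, 12 were below background and 1, Pmel, above it on every array. Their summed level was 63.7 and 64.1 in OP9M2 and 64.6 and 62.8 in BFC012, and limma called 0 of 13 (0 at an unadjusted p under 0.05 towards OP9M2 and 1 towards BFC012). Of 7 blood cell markers 5 and of 8 endothelial markers 7 were below background on every array, and limma called 0 of either (0 at an unadjusted p under 0.05). The exceptions, Csf1r and Cd3e among the blood cell markers and Kdr among the endothelial ones, were above it on every array. The adipocyte hormone Adipoq was at 12.84 in OP9M2 replicate 1 and at 5.41 in replicate 2, and at 3.99 and 3.39 in BFC012. Lpl, a lipase of fat cells, was high on both OP9M2 arrays, at 13.88 and 12.02 against 6.33 and 5.74 in BFC012. Without OP9M2 replicate 1, which had the higher level of both genes, the Kitl differences were those given above, and the part of fat cell genes in them was not tested.

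The receptor of the ligand was not detected in the stroma. With its brighter probe set, Kit had levels of 5.20 and 5.20 on OP9M2 against 5.26 and 4.92 on BFC012, below background on all arrays and with the lines overlapping (0.11 ± 0.17, adjusted p = 0.815). Its other probe set lay between 4.22 and 4.44. Of 11 measured genes for receptors of the Kit family and their ligands, 0 were called higher by limma (3 at an unadjusted p under 0.05) and 1 lower, with a median difference of 0.11. Among genes represented by 1 probe set each, 2.36% were called higher and 3.56% lower over the whole array, and the median difference was 0.032.

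The receptors closest to Kit in this family that stroma uses are those for platelet-derived growth factor. Pdgfra gave 12.22 and 10.76 for OP9M2 against 7.77 and 8.48 for BFC012, so all OP9M2 arrays were above all BFC012 arrays, but the difference of 3.37 ± 0.56 missed the threshold (adjusted p = 0.0513). It passed in 6 alternatives, with adjusted p between 0.00624 and 0.0461 there and up to 0.405 over all that were run. Pdgfrb stood at 12.71 and 11.30 against 9.58 and 10.07 (2.18 ± 0.51, adjusted p = 0.109). The ligand Pdgfd was called lower, at 3.07 and 3.30 against 6.23 and 7.46 (-3.66 ± 0.43, at least 1.68-fold, adjusted p = 0.0232). Its other probe sets, at -1.45 and 0.028, were not called. Csf1, the macrophage growth factor whose receptor is a relative of Kit, gave 11.17 and 11.58 for OP9M2 against 11.34 and 10.86 for BFC012, which overlap (0.28 ± 0.25). The other Csf1 probe sets, at -0.063, -0.43 and -0.78, were not called. Il34, the other ligand of the Csf1 receptor, gave 6.06 and 6.47 for OP9M2 against 5.22 and 4.93 for BFC012. It differed by 1.19 ± 0.21 (at least 1.13-fold, limma adjusted p = 0.0605), and only OP9M2 replicate 2 was above background. Flt3l had no probe set of its own.

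Proteases that can release membrane-bound growth factors, with their partners and inhibitors, formed a list of 13 genes, of which 1 was called higher and 1 lower (median difference -0.0017). By comparison, 2.36% of all genes were called higher and 3.56% lower. Adam8, a membrane-bound metalloprotease, was higher in OP9M2, at 8.87 and 9.56 against 6.17 and 5.99 (3.13 ± 0.27, adjusted p = 0.0105). BFC012 replicate 1 was just above the background level and replicate 2 below it. Rhbdf2, an inactive rhomboid that helps the protease Adam17 to mature, was lower, at 7.25 and 7.38 against 8.40 and 8.26 (-1.01 ± 0.14, adjusted p = 0.0362). That difference is at the 2-fold limit, and without OP9M2 replicate 1 it was -0.95 and no longer a call. Adam17 itself, the main sheddase of many surface proteins, gave 9.13 and 9.29 for OP9M2 against 9.63 and 9.76 for BFC012, lower on both OP9M2 arrays but not called (-0.49 ± 0.15, adjusted p = 0.176). Adam33 was between 6.15 and 6.38 and overlapped between the lines. Mmp9, a gelatinase known to release Kit ligand in bone marrow, was between 5.90 and 6.02, below background on every array.

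Genes that relay the Kit signal inside a responding cell were mostly above background in the stroma. Of 31 listed genes 25 had a probe set of their own, and 22 of these were above background on every array. None was called higher by limma (0 of 25, with 4 at an unadjusted p under 0.05), 2 were called lower and the median difference was -0.11. The shares called among all genes were 2.36% higher and 3.56% lower. Grb10, an adaptor that restrains insulin and growth factor receptors and is imprinted, gave 5.25 and 5.21 for OP9M2, below background, against 11.86 and 12.02 for BFC012 (-6.72 ± 0.14, at least 57.7-fold, adjusted p = 0.00105). Its other probe sets, at -1.14 and -0.59, were not called. Socs6, an inhibitor that binds activated Kit, gave 7.74 and 8.33 for OP9M2 against 9.52 and 9.82 for BFC012 (-1.63 ± 0.25, adjusted p = 0.0449), and its other probe sets at -1.10 and -0.39 were not called. The largest difference towards OP9M2 was that of Cblb, a ubiquitin ligase, with 1.27 ± 0.28 (adjusted p = 0.0958).

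**Figure D3:**
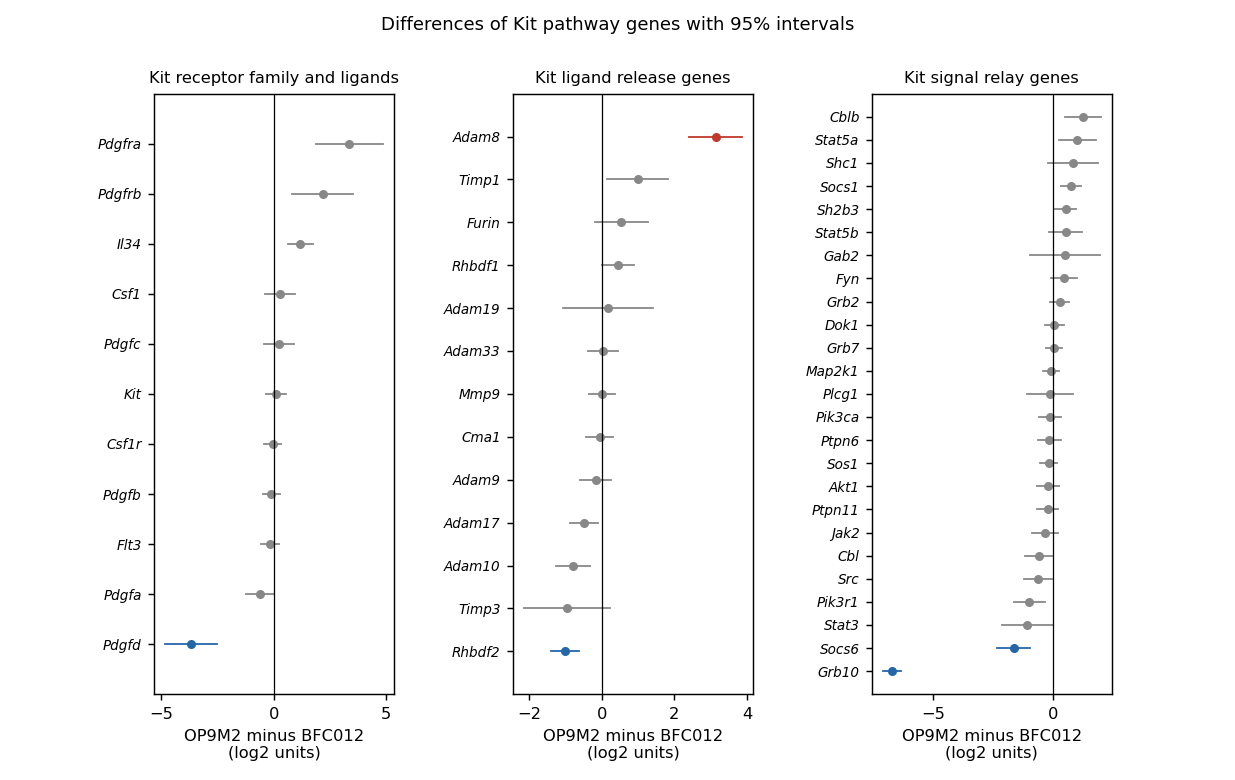
Difference between the lines (horizontal axes, OP9M2 minus BFC012, log2 units) with 95% intervals not adjusted for the number of genes, for the 11 measured receptors and ligands of the Kit family, the 13 release genes and the 25 signal relay genes, each by its probe set of highest mean; red is called higher, blue called lower and grey not called. Adam8 is the only red point, and Pdgfd, Rhbdf2, Socs6 and Grb10 are blue.

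Genes that mark the Kit ligand-producing stroma of bone marrow did not all follow Kitl. Of 19 measured, 6 were called higher in OP9M2, 2 lower and 11 neither, with a median difference of 0.31. Over the whole array, 2.36% of genes were called higher and 3.56% lower. Foxc1, a transcription factor that marrow stroma needs to keep its niche, gave 11.58 and 11.15 for OP9M2 against 9.04 and 9.75 for BFC012 (1.97 ± 0.30, adjusted p = 0.0448, and adjusted p = 0.0567 without OP9M2 replicate 1). Both of its probe sets were called. The transcription factor Ebf3 was higher with all of its 3 probe sets and Ebf1 with 4 of 5, and Angpt1, Il7 and Lpl completed the 6. With the brightest probe set, the differences were 7.15 for Angpt1, 6.91 for Lpl, 4.97 for Ebf1, 3.64 for Ebf3 and 3.63 for Il7. Of these genes, all but Lpl were below background on both BFC012 arrays. Lepr, the leptin receptor by which such stroma is sorted, gave 6.07 and 5.95 for OP9M2 against 5.82 and 5.60 for BFC012, below background on every array (0.31 ± 0.15, adjusted p = 0.386). The chemokine Cxcl12 was at 13.34 and 12.86 against 13.97 and 14.01, lower on both OP9M2 arrays (-0.89 ± 0.20, adjusted p = 0.104), and it was called lower without OP9M2 replicate 1 (-1.13, adjusted p = 0.0278). Bmp4 and the BMP antagonist Grem1 were the genes called lower, by -2.09 ± 0.33 and -5.35 ± 0.15. Vcam1 was not called with its brightest probe set (-1.28 ± 0.42, limma adjusted p = 0.207). Its other probe sets were at -1.39, not called, and at -2.24, called lower (limma adjusted p = 0.0279). Prrx1, a mesenchymal homeobox gene, overlapped between the lines at 12.15 to 12.75.

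Of 12 cytokines commonly combined with Kit ligand in cultures, 7 had a probe set of their own, and Thpo, Epo and Flt3l were among those without one. Of all genes on the array, 2.36% were called higher and 3.56% lower. Among the 7, Il7, the lymphoid cytokine, was called higher and 0 were called lower by limma (0 at an unadjusted p under 0.05). It gave 8.47 and 7.43 for OP9M2 against 4.15 and 4.50 for BFC012 (3.63 ± 0.39, at least 3.62-fold, adjusted p = 0.0178). Il6 differed more within OP9M2, at 8.63 and 4.67, than between the lines, since BFC012 had 8.31 and 8.49. Il3, Csf2 and Csf3 were below background on every array.

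The genes around Kitl did not share its difference as a block. Of the 5 measured genes on each side of it on chromosome 10, 2 were called higher, 1 was called lower and 7 were not called. Over the whole array, 2.36% of genes were called higher and 3.56% lower. The median difference of the neighbours was 0.39, against 0.032 over all genes. By limma, 4 of them had an unadjusted p under 0.05 towards OP9M2 and 1 towards BFC012. Nearest at lower coordinates was Csl, 256 kb away and below background on every array (0.21 ± 0.15). Dusp6, a phosphatase that shuts off ERK, lay 748 kb away and was lower in OP9M2, at 10.60 and 9.90 against 12.27 and 12.05 (-1.91 ± 0.28, adjusted p = 0.0374). Atp2b1, a calcium pump of the cell membrane 989 kb away, was higher with all of its 3 probe sets, at 11.70 and 11.83 against 10.20 and 10.44 with the brightest (1.45 ± 0.16, adjusted p = 0.0188). Poc1b, a centriole gene, was higher by 1.21 ± 0.15 (adjusted p = 0.0258), and its other probe set, at 0.70, was not called. Galnt4, a glycosyltransferase gene that lies inside Poc1b, differed by 1.19 ± 0.41 (adjusted p = 0.223). Nearest at higher coordinates were Tmtc3, 343 kb away (-0.37 ± 0.21, with its other probe sets between -1.38 and 0.74), and the cilium gene Cep290 (0.71 ± 0.14, adjusted p = 0.0798), both above background on every array and not called. The gene 4930430F08Rik was not called with its brightest probe set (0.56) and called with the dimmest of 3 (1.49, limma adjusted p = 0.0495). That dimmest probe set gave 6.10 and 5.69 for OP9M2 against 4.18 and 4.63 for BFC012. Only OP9M2 replicate 1 was above background there, and barely. The last neighbours on that side, 1700017N19Rik and Mgat4c, were below background on every array.

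**Figure D4:**
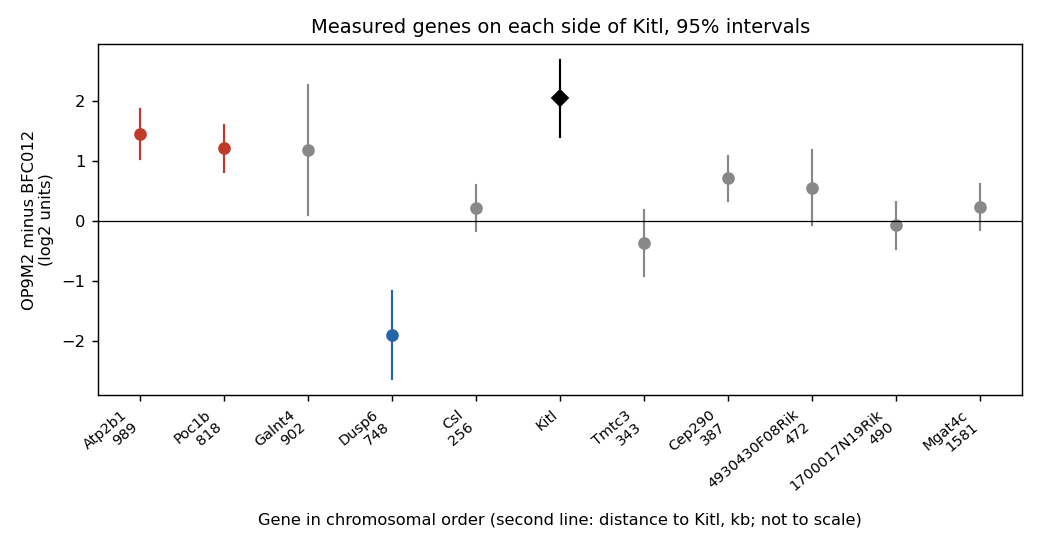
Difference between the lines (vertical axis, OP9M2 minus BFC012, log2 units) with 95% intervals not adjusted for the number of genes, for Kitl (black diamond) and the 5 measured genes on each side of it in chromosomal order (horizontal axis), with the distance to Kitl in kb under each name; red is called higher, blue called lower and grey not called. The genes nearest to Kitl on both sides, Csl and Tmtc3, lie at 0.21 and -0.37, while Kitl lies at 2.04.

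Against all genes, Kitl was among those with a large difference towards OP9M2 but not among the extremes. With 1415855_at, its probe set of highest mean, 343 of 18193 genes (1.89%) had a difference at least as large, and 231 of them were called. The median of the 429 genes called higher was 2.23, so Kitl was slightly below the middle of that group with this probe set, and above it with the other 3.

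The genes whose levels followed those of Kitl most closely over the 4 arrays were Igsf3, Coro2b, Rbmx, Foxred2, Trim25, B4galt6, Kazald1, Tmem185b, Rasa4 and Fgfr1. The measure was the root mean square distance between profiles, each centred on its own mean, among the 10620 genes above background on all arrays. It was 0.070 for Igsf3, an immunoglobulin superfamily membrane protein, and 0.12 for Fgfr1, a receptor for fibroblast growth factors, against a median of 1.06 over all those genes. Igsf3 gave 9.58 and 8.83 for OP9M2 against 7.12 and 7.31 for BFC012. Fgfr1 gave 11.01 and 10.35 for OP9M2 against 8.23 and 8.64 for BFC012. Both show what the 10 share with 1415855_at, a higher level on OP9M2 replicate 1 than on replicate 2 and lower levels on both BFC012 arrays. The other probe sets of Kitl lay at 0.28 (1426152_a_at), 0.38 (1415854_at) and 0.65 (1448117_at) from 1415855_at, and 87 genes were nearer to it than any of them. Kazald1 was not called (1.94, adjusted p = 0.0527), and the other 9 were, by 1.83 to 2.24. Since the 10 were chosen for nearness to 1415855_at on these same arrays, differences near its 2.04 follow from the choice. Called probe sets were 1 of 4 for Rbmx, 1 of 3 for Igsf3 and 1 of 2 for Rasa4 and Coro2b. They were 2 of 4 for B4galt6, 2 of 3 for Trim25 and Fgfr1 and 1 of 1 for Foxred2 and Tmem185b.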

How the data were processed

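Total RNA of 2 OP9M2 and 2 BFC012 cultures was amplified (Ambion kit) and measured on Affymetrix whole-genome mouse expression arrays. The deposited intensities, 1 per probe set and array, were made by the authors with RMA and affy (per the labels; versions not given in the sources used here), with Bioconductor 2.7 named in the methods. They reached 2958707, above the scanner limit of 65535, and their natural logarithms (2.06 to 14.9) have the range of RMA log2 values, so these were used as log2 levels, although the design had assumed log2 of linear values; the base is not stated. Of 45101 probe sets, 64 controls were left out. Of the rest, 34945 named 1 gene, 932 several and 9160 none. Symbols follow the GRCm38.p6 gene table.

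Lines were compared with limma 3.58.1 in R 4.3.3 (lmFit, eBayes, no covariate; 2 residual and 2.50 prior degrees of freedom), with Benjamini-Hochberg adjustment over 45037 probe sets. Calls required both an adjusted p under 0.05 and 1 log2 unit or more between the lines. The test was checked on simulated data. A gene was represented by its probe set of highest mean. A fold against a line below the background level on both arrays is a lower bound. The number of arrays limits the precision.

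The text names all Kitl probe sets, called genes of the lists and, called or not, Kit, Flt3l, Csf1, Pdgfra, Pdgfrb, Adam17, Adam33, Mmp9, Cxcl12, Lepr and Thpo, the 5 measured neighbours on each side and the 10 nearest profiles; further list genes are named for their levels. Kitl and the lists were chosen with earlier results of these data known.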

Additional observations from a re-analysis of the deposited data

How the results depend on the processing

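Kitl kept its direction in all alternatives run. With log2 of the deposited values, the differences were 1.44 times as large, from 2.95 to 4.75, with the same adjusted p, so each fold depends on the unstated base. With the mean of its probe sets, Kitl differed by 2.61 (adjusted p = 0.00547). The labels number the replicates alike in both lines, but same-numbered arrays did not deviate together (r = -0.10 across probe sets), and nothing else pairs them. With the replicate number as a block, 2 of the 4 Kitl probe sets were called: 1415855_at (2.04, adjusted p = 0.0970) and 1448117_at (3.29, adjusted p = 0.106) were not. Under this block, 245 probe sets were called higher and 462 lower on the array, with 0 higher and 0 lower for the Kit receptor family, 0 and 0 for the release genes, 1 lower relay gene, 2 higher and 1 lower niche gene, 0 higher cytokines and 0 and 0 neighbours. With the numbers of BFC012 crossed in the block, an alternative added after seeing the data, 585 and 792 probe sets and 4 of Kitl were called. The cause was not tested for any of these changes; the block leaves 1 fewer residual degree of freedom.

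Leaving out each array in turn gave 2.47 to 2.64 for 1415854_at, 1.76 to 2.33 for 1415855_at, 2.43 to 2.65 for 1426152_a_at and 2.86 to 3.72 for 1448117_at, and 0 to 4 called Kitl probe sets. Array-wide calls ran from 0 to 2181 higher and from 0 to 2256 lower. The counts ran from 0 to 3 higher and 0 to 1 lower for the receptor family, 0 to 2 and 0 to 2 for release genes, 0 to 4 and 0 to 3 for relay genes, 0 to 9 and 0 to 4 for niche genes, 0 to 1 and 0 to 1 for cytokines, and 0 to 3 and 0 to 1 for neighbours. In the receptor family 1 gene was called higher with quantile normalization and with the filter on dim probe sets, 2 with a trend in the variance prior and 2 with the mean of all probe sets, where 0 were lower. No release gene (0) was called lower with quantile normalization or the trend. Quantile normalization and the mean of all probe sets each left 1 lower relay gene, and the mean left 1 higher neighbour.

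Genes that were not called and changed sign were Kit (-0.063 to 0.28) and 1700017N19Rik (-0.18 to 0.029) as single arrays were left out, with the other sign without BFC012 replicate 2, and Csf1 with the mean of all probe sets (-0.25). Adam33 (-0.076 to 0.15 over single arrays left out) did so without OP9M2 replicate 2 (-0.034), without BFC012 replicate 2 (-0.076) and with that mean (-0.13), and Mmp9 without OP9M2 replicate 1 (0.0014), without BFC012 replicate 2 (0.059) and with that mean (0.20).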
